A study of Arabidopsis thaliana with 20 samples.

Results

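The nuclear transcripts of the 10 N-limiting libraries varied most along 1 axis, the first principal component, and this report describes the libraries at the ends of that axis. Set A holds replicates 1, 4, 8 and 9, and set B holds replicates 2, 3, 5, 6 and 7, so that 9 of the 20 libraries of the series are compared. Replicate 10 lay between the sets and is shown apart, and the 10 libraries labelled N-sufficient were left out because each holds the same 32744 values as the N-limiting library of the same number. The sets are not groups of the study. They were chosen from the nuclear counts described here, so nuclear genes are given as values without a test, and p-values are given only for plastid and mitochondrial genes and for measures of the libraries.

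All 9 libraries carry the same labels. They are rosettes of wild type (WT) Arabidopsis thaliana, accession Col-0 by the methods of the study, at Boyes stage 1.09. The plants grew on soil for 8 days and then on an automated platform for 19 days at 60% soil water content, with a nutrient solution of 2.5 mM nitrate, and total RNA was depleted of ribosomal RNA and sequenced by a stranded protocol. Neither the labels nor the methods say how many plants make a library or give a batch, a day of harvest or a position on the platform, and the study calls the libraries biological replicates. Since the N-sufficient files repeat the same values, it cannot be told from the files whether the counts belong to the N-limiting label, used here, or to the N-sufficient one.

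A rosette leaf is layered. The epidermis secretes the cuticle, a film of the polyester cutin and of waxes, and carries trichomes (leaf hairs) and the guard cells of the stomata. Beneath it, mesophyll cells hold most of the chloroplasts, and the veins hold phloem, which exports sugar and amino acids, and xylem. The genes that mark these cell types were therefore set against each other between the sets, beside genes of photosynthesis, ribosomes, nutrition, stress and defence.

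Over the 18255 nuclear genes that averaged 10 counts or more, the first component held 39.3% of the variance. The scores of set A were 34.4, 25.6, 25.6 and 27.3, and those of set B were -21.9, -32.7, -15.3, -23.1 and -19.5. Replicate 10, at -0.51, was the only library between the innermost members, replicate 4 at 25.6 and replicate 5 at -15.3. The same order of set A, replicate 10 and set B was found when the component was computed on the genes of each of the 5 chromosomes alone. There it held between 38.1% and 41.2% of the variance. These genes are parts of the counts that chose the sets, so the order is a description and not a separate test.

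**Figure D1:**
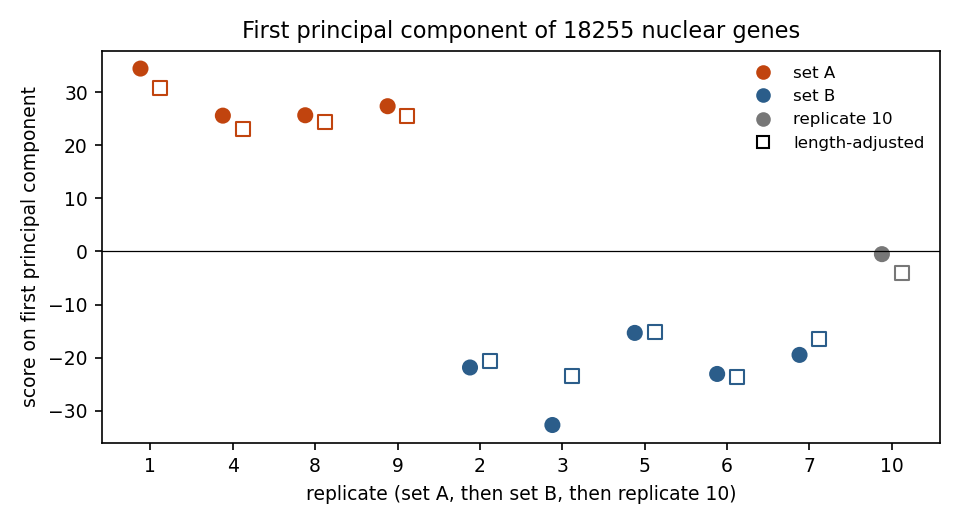
Score of each library (x axis, replicate number) on the first principal component of log2 CPM of 18255 nuclear genes (y axis, no unit). Filled circles are the scores as computed and open squares the scores after adjustment for transcript length. The 4 libraries of set A lie at 25.6 or above, the 5 of set B at -15.3 or below and replicate 10 at -0.51.

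Values are given as CPM, nuclear counts scaled to a library of 1e6 with TMM normalisation (a factor per library that sets the bulk of genes level). A difference is the mean log2 CPM of set A minus that of set B. A gene is listed as higher or lower in set A when every library of set A lay above, or below, every library of set B and the means differed by more than 1.5-fold. By this rule 960 of 18255 genes (5.26%) were listed as higher and 569 (3.12%) as lower. These shares are the background for every list below. Without a fold threshold the sets did not overlap for 2755 genes (15.1%) that were higher and 2249 (12.3%) that were lower. Scaling by total nuclear counts alone moved the median difference of all genes by 0.11 (log2), and the split then became 1586 genes higher and 356 lower. All counts of listed genes follow from the choice of the sets and are descriptions.

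Measures of the whole libraries were compared as well. Total counts ran from 42052474 to 47857052 in set A and from 41423334 to 50240504 in set B, and replicate 10 had 60323158. The share of counts on plastid genes was 63.9%, 66.5%, 67.6% and 68.7% in set A, against 68.2%, 72.3%, 69.2%, 71.7% and 68.9% in set B. The means were 66.6% ± 2.06 in set A and 70.1% ± 1.82 in set B (SD, n = 4 and 5), a difference of -3.42 percentage points (two-sided exact permutation test, p = 0.0317, adjusted over the 5 measures p = 0.159). The smallest p that 4 against 5 libraries allow is 0.0159. The mitochondrial share and the total count had adjusted exact permutation p-values of 0.476 and 0.952, so that none of these 3 measures passed the adjusted threshold. The other measures of the 5, the nuclear ribosomal RNA share and the number of nuclear genes with at least 1 count, rest on nuclear counts that chose the sets and are given without a test. The first was 0.0247% to 0.0627% in set A and 0.0142% to 0.169% in set B, and the second 22284 to 22368 genes in set A and 21991 to 22333 genes in set B. The nuclear genes held between 11000694 and 15099760 counts in each of the 9 libraries.

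Among the cell type markers, most of those of the epidermis stood higher in set A. Of the 5 epidermis markers 4 were listed as higher in set A and none as lower, with a median difference of 0.84, and the 5 markers together summed to between 995 and 1101 CPM in set A, against 507 to 639 CPM in set B and 587 CPM in replicate 10. In RNA from whole rosettes, more cells of a type and more RNA per cell cannot be told apart.

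ATML1 (AT4G21750) encodes a homeodomain factor that specifies the outermost cell layer. It had 126, 129, 127 and 133 CPM in set A, against 74.3, 68.9, 79.7, 69.4 and 68.9 CPM in set B. The values within set A lay close together, with an SD of 0.03 on the log2 scale against 0.09 in set B, and the mean was 1.78-fold higher. Replicate 10, at 89.8 CPM, lay between the sets.

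FDH (KCS10, AT2G26250), a ketoacyl-CoA synthase that elongates the long acyl chains of the cuticle, had 351, 349, 359 and 385 CPM in set A, against 149, 175, 175, 187 and 148 CPM in set B, a difference of 1.12 (SD 0.06 in set A and 0.15 in set B). CER1 (AT1G02205), which makes the alkanes of the wax layer, had 79.1, 84.0, 116 and 116 CPM in set A, against 27.2, 32.3, 31.9, 51.0 and 40.5 CPM in set B, or 2.72-fold more. KCS6 (AT1G68530), the synthase of the longest wax precursors, was 1.55-fold higher, at 417 to 441 CPM in set A and 241 to 309 CPM in set B. The exception was PDF1 (AT2G42840), a protein of the outermost layer, with 20.5 to 29.95 CPM in set A and 15.5 to 23.7 CPM in set B, where the sets overlapped.

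Genes of the epidermis are known to share the L1 box, an 8-base element read as TAAATGCA or TAAATGTA, which ATML1 and its relatives bind. The 250 bases before the RefSeq start of FDH (minus strand, chr2:11173279-11173528, build TAIR10.1) are shown because they hold this element, in capitals, with its first base 54 bases before the start.
KCS10: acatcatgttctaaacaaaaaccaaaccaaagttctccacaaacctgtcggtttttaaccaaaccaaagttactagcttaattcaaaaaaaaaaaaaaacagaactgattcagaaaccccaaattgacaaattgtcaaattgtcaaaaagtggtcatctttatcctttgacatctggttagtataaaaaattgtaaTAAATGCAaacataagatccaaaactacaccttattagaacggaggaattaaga

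Searched on both strands, either spelling stood in this window for 804 of 17690 measured protein-coding genes (4.54%). It stood in 59 of 910 genes listed as higher in set A (6.48%) and in 26 of 563 listed as lower (4.62%). Of the 8 measured epidermis and trichome markers, only FDH had it within this window. A match is a description of the letters and not of a binding site.

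Of the 3 trichome markers 2 were listed as higher in set A. GL2 (AT1G79840), a homeodomain factor of trichome and root hair fate, had 24.8, 24.7, 26.2 and 31.1 CPM in set A, against 8.28, 9.03, 6.50, 10.6 and 6.53 CPM in set B. The difference was 3.26-fold, and replicate 10 at 8.95 CPM lay inside the range of set B. MYB106 (AT3G01140), a MIXTA-like factor of trichome branching and cuticle formation, had 12.2, 12.2, 11.1 and 12.1 CPM in set A, against 5.41, 3.67, 4.60, 4.93 and 5.86 CPM in set B. GL1 (MYB0, AT3G27920), which starts trichomes on young leaves, was low and overlapped, with 0.93 to 1.85 CPM in set A and 0.63 to 1.47 CPM in set B.

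Markers of the inner leaf stood on the other side. All 5 mesophyll markers were lower in every library of set A than in any library of set B, although only 1 passed the 1.5-fold limit, and together they summed to 35309 to 42839 CPM in set A and 49851 to 55843 CPM in set B. CA1 (AT3G01500), the carbonic anhydrase of the chloroplast, had 1815, 2143, 1908 and 1876 CPM in set A, against 2672, 2808, 2501, 2992 and 2678 CPM in set B. RBCS1A (AT1G67090), a small subunit of Rubisco, ran from 14406 to 17525 CPM in set A and from 18311 to 20949.5 CPM in set B.

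Of the 5 phloem markers, 3 were listed as lower and the other 2 overlapped. SWEET11 (AT3G48740), which releases sucrose towards the phloem, had 61.9, 76.9, 65.1 and 61.2 CPM in set A, against 115, 126, 109.5, 119 and 114 CPM in set B. SWEET12 (AT5G23660), its close partner, had 5.97 to 8.04 CPM in set A and 10.4 to 12.3 CPM in set B. APL (AT1G79430), a factor of phloem identity, was 6.37 to 7.33 CPM in set A and 10.4 to 13.0 CPM in set B. SUC2 (AT1G22710), the sucrose loader of companion cells, overlapped at 65.1 to 89.3 CPM in set A and 81.4 to 115 CPM in set B.

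The guard cell list, although these are cells of the epidermis, did not follow the epidermis markers. HT1 (AT1G62400), a kinase of the stomatal response to carbon dioxide, had 1.44 to 1.90 CPM in set A and 2.49 to 3.25 CPM in set B, and the anion channel SLAC1 (OZS1, AT1G12480) had 4.14 to 5.22 CPM in set A and 6.05 to 9.20 CPM in set B. The other 4 of the 6 guard cell markers overlapped between the sets, KAT1 (AT5G46240) among them at 8.01 to 11.995 CPM in set A and 7.93 to 9.23 CPM in set B. Of the 5 xylem markers 1 was listed, the xylem protease XCP1 (AT4G35350), with 4.20 to 6.52 CPM in set A and 8.64 to 10.6 CPM in set B.

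The tissue label was set against the levels of markers. Mesophyll markers were abundant in every library, whereas none of the 5 root, 5 flower and 4 seed markers reached a mean of 10 counts, the highest count of any in a library being 12 for the root list, 7 for the flower list and 2 for the seed list. Of the 4 shoot meristem markers only STM (AT1G62360) did, with 0.56 to 1.90 CPM in set A and 1.09 to 2.02 CPM in set B.

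**Figure D2:**
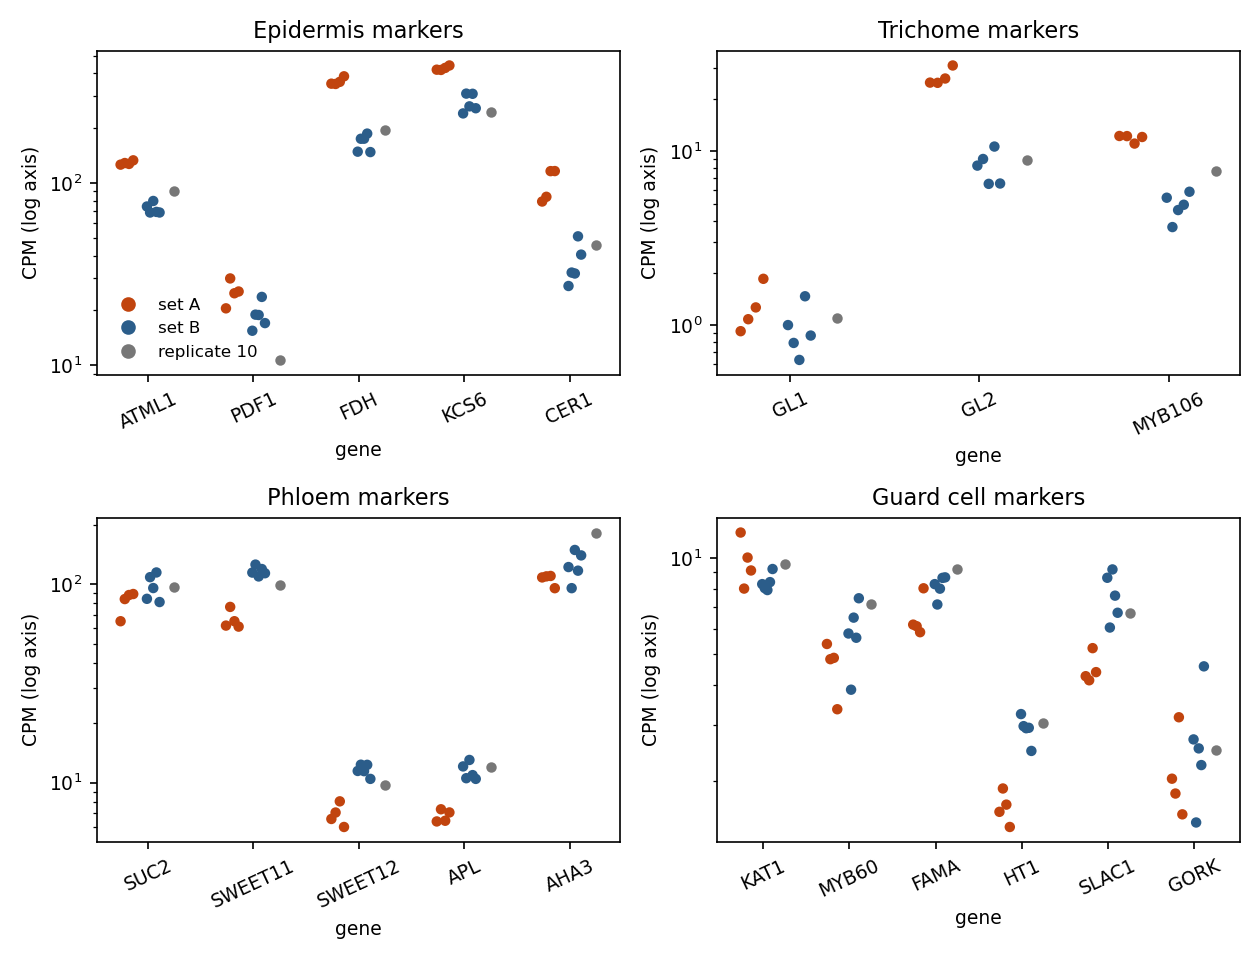
CPM (y axis, log scale) of each measured marker (x axis) of epidermis, trichome, phloem and guard cells, with 1 point per library. For ATML1, FDH, KCS6, CER1, GL2 and MYB106 the 4 libraries of set A lie above all 5 of set B, and for SWEET11, SWEET12, APL, HT1 and SLAC1 below them.

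Transcript length moved with the sets across the whole genome, and its part in these differences was not tested beyond an adjustment. With the genes divided into 10 bins of equal size by exon length, the median difference was -0.17 in bin 2 (893 to 1137 bases) and 0.32 in bin 10, the longest (3174 to 16593 bases). In that longest bin 298 of 1826 genes were listed as higher (16.3%) and 3 as lower (0.164%). Replicate 3 stood farthest to one side, with a median deviation of -0.31 for the longest genes, and replicate 1 farthest to the other, with 0.25.

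Each library was therefore also set level within 50 bins of exon length. The sets remained apart on the first component, which then held 35.0% of the variance, and 630 genes (3.45%) were listed as higher and 479 (2.62%) as lower, among them 495 of the 960 and 388 of the 569 listed before. For the 5 epidermis markers, with a median exon length of 2255 bases, the median difference went from 0.84 to 0.54. Among them CER1 (1.199) and FDH (1.02) stayed listed, while ATML1 (0.51) and KCS6 (0.54) fell short of the fold limit. The trichome factors GL2 (1.46) and MYB106 (1.35) and the 3 phloem markers (-0.64 to -0.70) stayed listed as well. For the 5 mesophyll markers, with a median exon length of 1268 bases, the median difference went from -0.40 to -0.26, and 1 was then listed as lower.

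**Figure D3:**
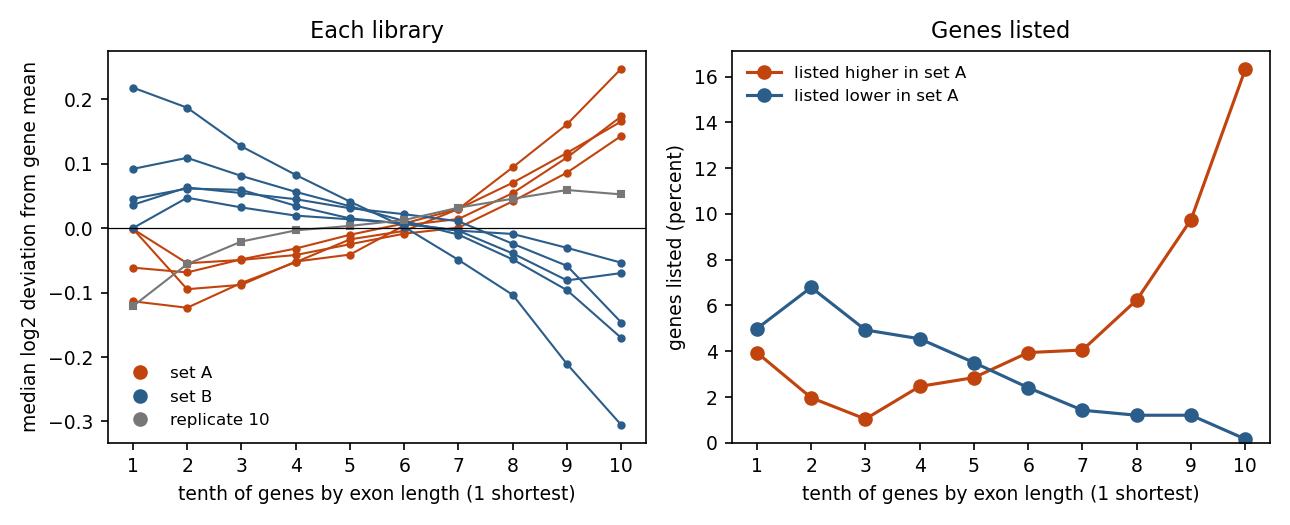
Left, the median log2 deviation of the genes of each of 10 length bins from their own mean over the 10 libraries (y axis), 1 line per library. Right, the percentage of genes of each bin that were listed. In the longest bin the lines of set A end above 0 and those of set B below 0, and the share of genes listed as higher in set A reaches 16.3% there.

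Among nuclear genes averaging 100 counts or more, the 15 that did not overlap between the sets and had the largest differences upward included genes of lipid metabolism, transport and the cell wall. First was AT2G33850, annotated as an E6-like protein, with 157, 131, 150.2 and 158 CPM in set A, against 45.2, 45.3, 39.7, 45.4 and 40.9 CPM in set B. CYP86A4 (AT1G01600), a fatty acid hydroxylase of the family that makes cutin monomers, had 39.2, 32.7, 36.0 and 43.2 CPM in set A, against 11.4, 15.1, 13.4, 14.3 and 12.1 CPM in set B. AT5G33370, a GDSL-type lipase, had 33.3 to 36.9 CPM in set A and 10.5 to 12.03 CPM in set B, with an SD of 0.07 and 0.08 on the log2 scale in the sets.

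LOX1 (AT1G55020), a lipoxygenase, an enzyme that oxidises polyunsaturated fatty acids, was 3.18-fold higher, with 20.7 to 24.1 CPM in set A and 6.15 to 8.17 CPM in set B. PCK1 (AT4G37870), the carboxykinase that turns oxaloacetate into phosphoenolpyruvate, had 301, 256, 302 and 309 CPM in set A, against 113, 112, 105, 108 and 96.1 CPM in set B. The remainder of these 15 included the zinc transporter gene ZIP7 (AT2G04032) at 28.3 to 34.5 CPM in set A and 8.83 to 12.03 CPM in set B, the pectin methylesterase gene PME61 (AT3G59010) with a difference of 1.45, the carbonic anhydrase gene ACA2 (AT2G28210, 1.54) and BOR5 (AT1G74810, 1.49), of the bicarbonate and borate transporter family.

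The 15 genes with the largest differences downward, chosen in the same way, included small secreted proteins and transporters. AT3G16670, a Pollen Ole e 1 and extensin family gene, had 6.24, 5.77, 4.16 and 4.94 CPM in set A, against 33.5, 35.2, 26.7, 35.6 and 29.0 CPM in set B, and replicate 10 lay midway at 16.1 CPM. Its difference, -2.57, was the largest in size of these 30 genes. Its relative of the same family, AT3G16660, which lies near it on the same chromosome, had 5.15 to 9.06 CPM in set A and 18.9 to 24.9 CPM in set B.

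AT4G22513 and AT4G22490, of the lipid-transfer protein family, lie near each other on chromosome 4 and were also low together. AT4G22513 had 2.78 to 6.84 CPM in set A and 11.3 to 31.2 CPM in set B, and AT4G22490 had 3.87 to 7.34 CPM in set A and 10.9 to 24.7 CPM in set B. AT4G22513 overlaps a gene on the other strand, AT4G22510, and whether the counting used the strand is not stated, so its reads may come in part from that gene. The defensin-like gene AT3G05730 and AT3G05727, of a pollen coat protein family, are neighbours too. AT3G05730 had 61.5, 63.8, 53.7 and 65.5 CPM in set A, against 194, 192, 173, 169 and 185 CPM in set B, and AT3G05727 had 2.04 to 4.16 CPM in set A and 5.86 to 16.3 CPM in set B.

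Further down this group stood NIP6;1 (AT1G80760), the channel that directs boron to young leaves, with 3.94 to 7.41 CPM in set A and 10.5 to 16.2 CPM in set B. GER3 (AT5G20630), a germin-like protein of the cell wall, had 122, 162, 221 and 195 CPM in set A, against 365, 433, 349, 444 and 365 CPM in set B. SIAR1 (AT1G44800), a transporter of amino acids, had 8.90 to 10.7 CPM in set A and 19.0 to 23.9 CPM in set B, and replicate 10 at 20.0 CPM lay inside set B. AT2G01021, a short open reading frame beside the ribosomal RNA genes of chromosome 2, had 10.7 to 19.4 CPM in set A and 23.6 to 456 CPM in set B, where replicate 6 alone gave the highest value. Its difference of -2.28 became -1.61 without replicate 6.

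**Figure D4:**
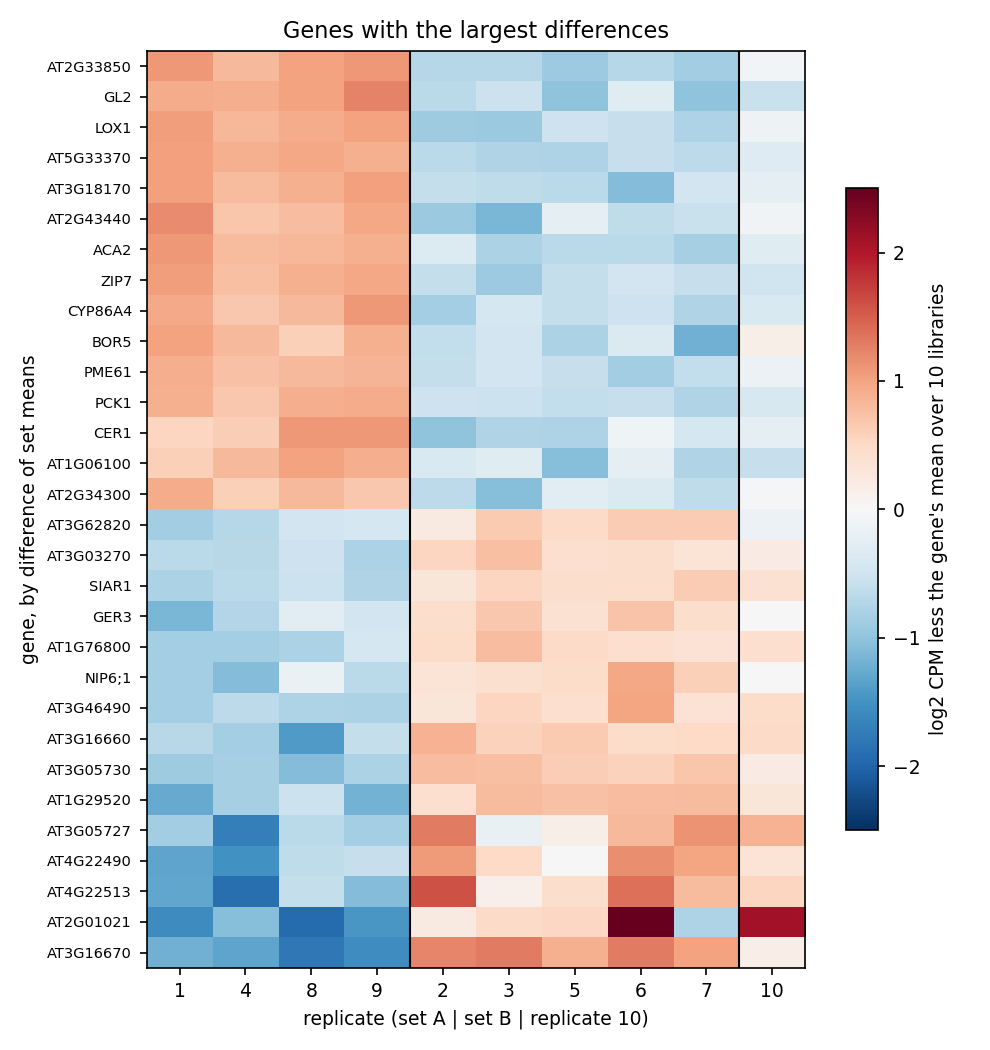
Colour gives log2 CPM less the gene's mean over the 10 libraries for the 15 genes with the largest positive and the 15 with the largest negative difference (rows, ordered by the difference) in each library (columns). The 4 columns of set A and the 5 of set B do not overlap in any row.

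Nuclear genes of photosynthesis lay mostly below the median of all genes. Of the 41 nuclear photosystem and antenna genes 5 were listed as lower and 0 as higher, with a median difference of -0.41 over a median of 0.0032 for all genes. LHCB6 (AT1G15820), a minor antenna of photosystem II, had 2883, 3303, 3348 and 3425 CPM in set A, against 4568, 5676, 4920.5, 5095 and 4832 CPM in set B. The others listed were LHCB4.3 (AT2G40100) and CAB1, CAB2 and CAB3, near-identical genes of the major antenna between which reads could be divided by the counting. The members are short, with a median exon length of 1204 bases, and after length adjustment the median was -0.27 and none stayed listed.

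Of the 84 measured genes named as ribosomal proteins 5 were listed as lower and 0 as higher (median -0.34, or -0.18 after length adjustment). Of 6 nuclear genes for proteins of the plastid ribosome 4 were lower, among them PRPS20 (AT3G15190) with 192 to 238 CPM in set A and 312 to 342 CPM in set B. RPS9 (AT1G74970), another protein of the plastid ribosome, had 136, 169, 149 and 142 CPM in set A, against 235, 260.4, 223, 249 and 244 CPM in set B. None of either list stayed listed after length adjustment. Of 42 histone genes 2 were lower and 0 higher (median -0.33, or -0.15 after length adjustment), and 1 of 15 cell cycle genes was listed, the mitotic kinase gene CDKB2;2 (AT1G20930, -0.74).

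Immune receptor genes of the NLR class, which sense pathogen effectors, were the list whose median changed most with length. The change of the epidermis median, given above, was nearly as large. Of the 99 measured, 14 were listed as higher and 0 as lower, with a median of 0.27, and the largest difference was that of AT3G14470 (1.21), at 3.60 to 6.80 CPM in set A and 1.31 to 3.17 CPM in set B. After length adjustment 1 was listed and the median was -0.03. The NLR genes are long, with a median exon length of 3897 bases.

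Among cytochrome P450 genes the number listed changed little with length. Of 107 measured, 16 were listed as higher and 3 as lower, and 17 and 2 after length adjustment, around a median of 0.03. They included CYP706A1 (AT4G22690), with 289.6 to 414 CPM in set A and 126 to 181 CPM in set B, and CYP81F2 (AT5G57220), a hydroxylase of indole glucosinolates used in defence, with 2.54 to 5.44 CPM in set A and 0.61 to 1.82 CPM in set B. CYP78A8 (AT1G01190) was among those lower, with a difference of -1.25.

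Jasmonate genes differed in a few members only. The lipoxygenases LOX2 (AT3G45140) and LOX4 (AT1G72520), which start jasmonate synthesis, and CORI3 (AT4G23600), a jasmonate-induced cystine lyase, were the 3 of 26 listed as higher. LOX2 had 684, 615, 812 and 646 CPM in set A, against 329, 367, 304, 469 and 332 CPM in set B. LOX3, another lipoxygenase of this step, was also higher without overlap but under the fold limit (0.55). The sets overlapped for the other 22 genes, among them the later enzyme AOS (-0.23) and the repressor JAZ1 (0.02), and the median of the list was -0.02. Of 18 salicylate and defence genes 1 was listed as higher, SAG101 (AT5G14930, 0.69), while PR1 (AT2G14610), the usual marker of the salicylate response, ran from 0.14 to 80.1 CPM within set A alone and from 2.42 to 56.8 CPM within set B.

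Of 15 genes of cold and dehydration 2 were listed as higher and 1 as lower, and 12 had a difference above 0. LTI78 (RD29A, AT5G52310) had 92.3, 77.8, 112 and 104 CPM in set A, against 30.5, 34.1, 48.8, 52.3 and 40.3 CPM in set B, and RD22 (AT5G25610), induced by drought through abscisic acid, had 1354, 1366, 1659 and 1771 CPM in set A, against 709, 935, 865, 954 and 827 CPM in set B. RAB18 (AT5G66400), a dehydrin that also responds to abscisic acid, stood the other way, with 4.07 to 8.96 CPM in set A and 9.44 to 13.8 CPM in set B. After length adjustment 2 genes of the list were higher and 0 lower. The endoplasmic reticulum chaperones BIP1 (AT5G28540) and BIP2 (AT5G42020), near-identical genes, were 1.99-fold and 2.08-fold higher in set A, with BIP1 at 169 to 248 CPM in set A and 89.1 to 115 CPM in set B.

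In flavonoid synthesis TT4 (AT5G13930), the chalcone synthase at its entry, had 693, 718, 889 and 978 CPM in set A, against 437, 498, 416, 447 and 372 CPM in set B. It was the only 1 of 13 genes past the fold limit, although 5 of the 13 were higher without overlap and the median was 0.34. Chloroplast beta-amylase (CT-BMY, AT4G17090), which degrades starch, was the only 1 of 17 starch genes listed, at 174 to 203 CPM in set A and 77.2 to 117 CPM in set B.

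Genes of nitrogen use were followed because nitrate supply is the condition the labels name. Of 12 measured genes of nitrate uptake and reduction 1 was listed as lower and 0 as higher, and 9 had a difference below 0 (median -0.22). Without a fold threshold 5 were lower without overlap and 0 higher, against 12.3% and 15.1% of all genes. After length adjustment 2 were listed as lower (median -0.29). Nitrate reductase genes did not separate the sets: NIA1 (AT1G77760) differed by 0.11 and NIA2 (AT1G37130) by -0.03, each with overlap. The high-affinity transporter gene NRT2:1 (AT1G08090) was listed as lower, at 0.68 to 1.15 CPM in set A and 1.31 to 3.03 CPM in set B, a low level in every library. NRT1.1 (AT1G12110), the dual-affinity transporter and nitrate sensor, did not overlap but stayed under the fold limit, with 96.0 to 116 CPM in set A and 129 to 177 CPM in set B. IPT3 (AT3G63110), the nitrate-responsive gene of cytokinin synthesis, had 9.40, 7.20, 9.31 and 7.96 CPM in set A, against 17.1, 15.7, 16.2, 17.8 and 15.5 CPM in set B.

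In mineral nutrition few genes passed the fold limit. All 3 measured ferritin genes, which store iron, had differences below 0 (median -0.41) without being listed, and of 7 copper economy genes 6 lay below 0 and 1 was listed. CSD2 (AT2G28190), the copper and zinc superoxide dismutase of the chloroplast, had 119, 156, 135 and 126 CPM in set A, against 283, 268, 220.1, 237 and 232 CPM in set B. NAS4 (AT1G56430), a synthase of the metal chelator nicotianamine, had 8.90 to 11.1 CPM in set A and 17.1 to 22.6 CPM in set B, and SULTR2;1 (AT5G10180), a sulfate transporter of the vasculature, had 43.7 to 55.5 CPM in set A and 72.8 to 84.8 CPM in set B. In phosphate starvation 2 of 12 genes were higher and 1 lower. Expansins, which loosen cell walls, were divided, with 1 of 18 higher (EXPA10, AT1G26770, 0.80) and 4 lower, EXLB1 (AT4G17030) the most at -1.12.

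For 9 of the 33 gene lists with a measured member, none was listed. They were the morning and evening clock genes, carbon starvation, rapid touch and wound response, senescence, flowering, photorespiration, ferritins and the shoot meristem. The clock genes CCA1 and LHY, which peak at dawn, differed by 0.24 and 0.31, and the sets overlapped for each.

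**Figure D5:**
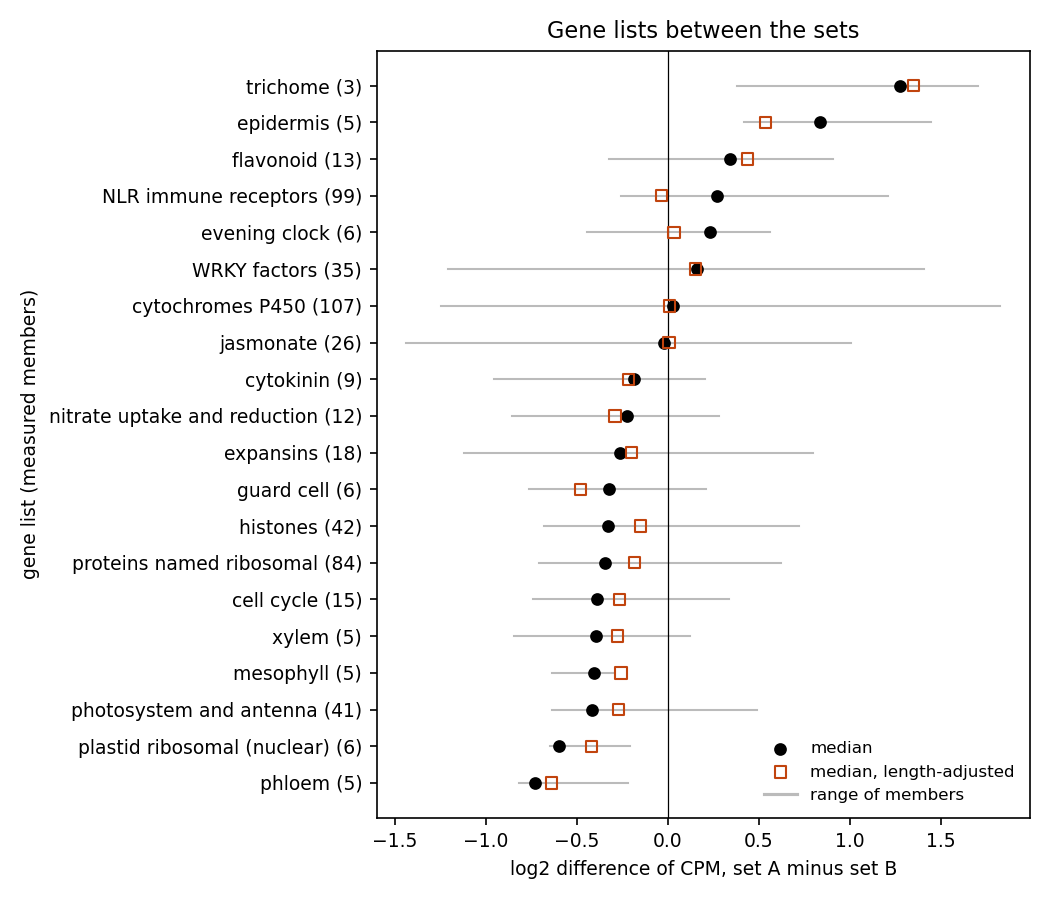
Median log2 difference of CPM, set A minus set B (x axis), for 20 gene lists with the number of measured members (y axis). Filled circles are medians as computed, open squares medians after length adjustment and grey lines the range of the members. Trichome (1.27) and epidermis (0.84) markers lie farthest right and phloem markers (-0.73) farthest left, and the NLR receptors move from 0.27 to -0.03 with the adjustment.

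Some genes of small structural RNAs were listed as well. Of 175 snoRNA genes, which guide the modification of ribosomal RNA, 27 were listed as higher (15.4%) and 0 as lower, and of 34 snRNA genes, of the spliceosome, 10 were higher (29.4%) and 0 lower. Their median deviations were not uniform within set A. For snRNA genes they were 0.64 and 0.72 in replicates 8 and 9 but 0.05 and 0.08 in replicates 1 and 4, and within set B they ran from -0.51 to 0.05, so the sets overlapped at this level.

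The values of replicate 10 were nearer to the mean of set A for 365 of the 960 genes listed as higher (38.0%) and for 203 of the 569 listed as lower (35.7%). For 466 and 222 of these genes it lay between the sets.

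Genes of the organelle genomes did not enter the choice of the sets and were tested. Their counts come from the same libraries, however, and were not adjusted for transcript length. The p-values are therefore not fully independent of how the libraries were chosen. With edgeR's quasi-likelihood test, adjusted over the 187 plastid and mitochondrial genes that averaged 10 counts or more, 12 genes (6.42%) were higher in set A and 12 (6.42%) lower, with a smallest adjusted p of 0.0248. Of 131 plastid genes 10 were higher and 10 lower, and of 56 mitochondrial genes 2 were higher and 2 lower. The changes were small, from 0.29 to 0.92 (log2) upward and from 0.24 to 0.49 in size downward. The sets did not overlap for 9 of 12 genes in either direction. These genes were called for a difference between the same sets, so that count is only a description. Some genes that were not called did not overlap either, among them ATCG00870 and ATMG00730.1.

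The largest was that of the plastid gene ATCG01030, with 1.86, 1.72, 2.72 and 2.09 CPM of organelle counts in set A, against 1.16, 1.12, 0.74, 1.01 and 1.49 CPM in set B (log2 change 0.92 ± 0.20 SE, adjusted p = 0.0270 by edgeR, higher in 4 of 4 libraries than in any of set B). ATCG00260 followed at 0.74 ± 0.12 SE (adjusted p = 0.0248 by edgeR), with 1.22 to 1.58 CPM in set A and 0.74 to 0.96 CPM in set B. Both genes had few counts, with a mean per library of 49.3 for ATCG01030 and 32.7 for ATCG00260. The mitochondrial gene ATMG01275.1 had the largest decrease, -0.49 ± 0.11 SE (adjusted p = 0.0270 by edgeR), at 59.0 to 74.6 CPM in set A and 73.8 to 99.8 CPM in set B, where the ranges overlapped. ATCG00940 had 424 to 481 CPM in set A and 516 to 765 CPM in set B (-0.48 ± 0.11 SE, adjusted p = 0.0270 by edgeR). Among the 24 genes were 4 pairs whose values stayed within 10% of each other in every library. Whether such genes share reads was not tested, so the 24 genes may not be 24 separate signals.

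The number of calls depended on which libraries were kept. Leaving out replicate 1, 2, 6 or 8 left 0 genes past the threshold, with a smallest adjusted p from 0.0515 to 0.0890 (edgeR). In these fits 41 to 47 genes had an unadjusted p under 0.05 (edgeR), against 49 with both sets complete. Leaving out replicate 7 gave 22 higher and 19 lower. Leaving out replicate 3, 4, 5 or 9 gave between 7 and 11 higher and between 0 and 7 lower. With library sizes set by the nuclear genes in place of the organelle genes, 0 were higher and 16 lower.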

How the data were processed

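Rosettes were measured by stranded RNA-Seq after depletion of ribosomal RNA. The authors deposited raw counts per gene. The submitters' processing notes name STAR, featureCounts and TAIR10, without versions. Each N-sufficient file held the same 32744 values as the N-limiting file of its number and was not used. The members and the gene lists were chosen with earlier results of these data known.

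Counts of nuclear genes with a mean of at least 10 were scaled by TMM (edgeR 4.0.16, limma 3.58.1, R 4.3.3) and given as log2 CPM with a prior count of 2. Organelle genes were tested with edgeR's quasi-likelihood test and Benjamini-Hochberg adjustment, with DESeq2 1.42.0 as an alternative. Measures of the libraries were compared by a two-sided exact permutation test over 126 choices (scipy 1.17.1, Python 3.11). The study calls the libraries biological replicates and the labels do not name separate plants or batches, so p-values measure only the spread between these samples. Named genes were the 15 largest in each direction with a mean of at least 100 counts and no overlap, up to 5 listed members of each list and the members for which a list is best known, and organelle genes with large changes. Names came from RefSeq (TAIR10.1), which matched all 32548 nuclear identifiers and 0 of the 133 plastid and 63 mitochondrial ones. The scripts were tested on simulated data.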

Additional observations from a re-analysis of the deposited data

Results flagged for a closer look

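Of 167 values examined over the 10 libraries, 6 had 1 library far from the others. For values drawn from a single normal distribution, chance alone gives such a gap in about 1 of 20. Many of the values belong to genes named because the sets did not overlap, so that rate does not hold for them. Replicate 10 had a total count of 60323158, against 50240504 in the next library. Replicate 5 had 0.169% of its counts on nuclear ribosomal RNA genes, against 0.0627% in the next. Replicate 6 had 456 CPM of AT2G01021, against 173 CPM in replicate 10, the next highest.

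As a mean log2 deviation from each gene's average, the cold and dehydration list stood at 0.53 in replicate 8, against 0.13 in the next library. The ERF and DREB factors, regulators of ethylene and stress responses, stood at 0.53 in replicate 3, against 0.17. The carbon starvation genes stood at -0.24 in replicate 10, against -0.03 in the next lowest.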

How the results depend on the processing

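No paired analysis was possible because N-limiting and N-sufficient files of the same number are identical, so numbers pair no separate libraries. Scaling by nuclear totals without a factor gave 1586 genes higher and 356 lower, a fold above 2 gave 170 and 128, no fold threshold 2755 and 2249, and replicate 10 counted in set A 490 and 274. A minimum mean of 100 counts left 258 lower, and length adjustment, chosen after seeing the data, 630 higher. Leaving out each replicate gave 922 to 1114 higher and 546 to 668 lower. The share of variance of the first principal component (percent) was 51.3 at a minimum mean of 100 counts, 35.5 with scaled genes, 35.0 after length adjustment and 37.4 to 42.8 without each replicate. Of organelle genes, 0 were higher with nuclear library sizes (68 at an unadjusted p under 0.05, edgeR), 4 higher and 0 lower passed a fold above 1.5 in addition, 3 and 5 passed with replicate 10 in set A, 8 and 4 with it in set B, and 0 to 22 and 0 to 19 without each replicate, while DESeq2 called 15 and 15. The cause was not tested. Of the list medians larger than the SD of the list's mean within the sets, those that changed sign were carbon starvation (0.022 without a factor and 0.12 at a minimum mean of 100 counts), heat shock (-0.045 with at least 1 count), expansins (0.051 at a minimum mean of 100 counts) and NLR genes (-0.034 after length adjustment). Smaller medians changed sign too, and after length adjustment they included morning clock genes (-0.02), light stress (0.04), touch and wound response (0.07), glutathione transferases (0.07) and iron deficiency (-0.13). Of the values of listed named genes under the alternatives 1947 moved by less than the spread between libraries, 79 by more and 0 changed sign. The sets did not overlap for any of these genes, so leaving out libraries could not change a sign. Named genes that were not listed were not in this count. The alternatives included leaving out replicates 3 and 6 together, also chosen after seeing the data.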

Other observations

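Genes whose annotation names the cuticle were grouped after their values had been seen, so their counts are descriptions. Of 24 measured, 13 were listed as higher in set A and 0 as lower, with a median difference of 0.65. After length adjustment 12 of the 24 were listed, and ABCG12 (0.50) and GPAT6 (0.50) were under the fold limit. The transporters that export cuticle lipids were among them. ABCG32, which carries cutin precursors, had 225, 234, 216 and 224 CPM in set A, against 98.1, 87.6, 117, 105 and 100.07 CPM in set B, and ABCG11 had 183 to 191 CPM in set A and 95.5 to 111 CPM in set B. The acyl-CoA synthetase LACS1 differed by 1.06, LACS2 by 0.77, and the glycerol acyltransferases GPAT8 and GPAT6, which build cutin monomers, by 0.78 and 0.59. The upstream window of ABCG11 (plus strand, chr1:6142152-6142401, build TAIR10.1, RefSeq) is shown because it held 2 matches to the L1 box, in capitals, 82 and 47 bases before the start. Of the 13 listed cuticle genes 2 held the box in this window, ABCG11 and KCS10, and for the other 11 these letters were not found there.
ABCG11: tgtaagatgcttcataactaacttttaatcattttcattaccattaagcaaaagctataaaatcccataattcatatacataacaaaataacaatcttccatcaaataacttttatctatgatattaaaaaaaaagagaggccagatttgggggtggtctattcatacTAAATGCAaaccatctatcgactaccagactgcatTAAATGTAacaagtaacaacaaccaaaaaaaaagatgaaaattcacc

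Other groups made in the same way differed in direction. Of 40 amino acid transporter genes 8 were listed as lower in set A and 0 as higher, although the median was only -0.06. AAP2, which moves amino acids in the phloem, had 34.6, 39.4, 40.4 and 34.8 CPM in set A, against 74.4, 70.4, 68.1, 85.6 and 71.1 CPM in set B, and AAP4 had 23.7 to 27.7 CPM in set A and 44.7 to 57.4 CPM in set B. Of 44 genes of the lipid transfer protein family 8 were lower and 1 higher (median -0.50), or 6 and 3 after length adjustment (median -0.35), and of 15 defensin-like genes 3 were lower (median -0.60). Of 49 GDSL lipase genes 4 were higher and 5 lower (median 0.17), or 9 and 4 after length adjustment (median 0.21). Among 32 genes of pectin methylesterases or their inhibitors 4 were higher and 6 lower (median -0.06), or 3 and 5 after length adjustment (median -0.05). Of 30 genes matched by annotation words for endoplasmic reticulum chaperones 4 were higher and 0 lower, namely BIP1, BIP2, IRE1A (0.72) and CNX1 (0.70). The match was by words, so a member such as IRE1A need not be a chaperone itself.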
